A study of Homo sapiens and Mus musculus with 19 samples.

Results

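Described here are 1026 CCGG sites of the mouse cerebellum that carried under 15% 5-hydroxymethylcytosine (5hmC) at P21 and much more at 32 weeks. They were chosen on their 5hmC values, as autosomal sites with at least 20 tags in all 5 mouse libraries, a pooled 5hmC share under 15% at P21, a pooled share at least 25 percentage points higher at 32 weeks, and both 32-week shares above all P21 shares. Of 248967 autosomal sites with that coverage, called well-covered sites below, 224107 lay under 15% at P21 and 1026 met the whole rule, which is 0.412% of the well-covered sites. Because the rule used the 5hmC share of every library, the shares and gains of these sites are given as a description and carry no test.

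The libraries were made from cerebellum labelled P21 (3 libraries) and 32 weeks (2 libraries). The labels give the tissue and age but no strain, sex or treatment. Nothing in them ties a library to an animal, so p-values below measure only the spread between these libraries, which may be technical. At each CCGG site the assay, DARESOME, counts tags of 3 kinds. The U-tag is ligated where HpaII cut, that is at unmethylated CCGG. Per the labels, later rounds with MspI and a glucosylation of 5hmC assign the H-tag to hydroxymethylated and the M-tag to methylated sites. A share is the percentage of tags of 1 kind among all tags at a site or set of sites. The libraries held 17406896 to 25952928 tags. Positions are counted from 1 and were read as mm10, the build named in the rule for the sites. The tissue label could not be checked against marker genes in DNA tags.

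In mammals, cytosine next to guanine is methylated by the DNMT enzymes to 5-methylcytosine (5mC), and the TET enzymes oxidise 5mC to 5hmC. Neurons are known for holding far more 5hmC than most other cells, and in the brain the mark builds up as neurons mature after birth. The cerebellum consists mainly of granule neurons, with far fewer Purkinje cells, interneurons and glia. In bulk tissue a change in the proportions of cell types and a change within cells cannot be told apart.

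The sites went from under 15% 5hmC to a level still below that of 5mC on average (38.7% against 49.6% at 32 weeks). Summed over all 1026 sites, 5hmC made up 35.5% and 42.01% of tags in the 32-week replicates 1 and 2, and 10.54%, 9.22% and 9.23% in the P21 replicates 1 to 3. All P21 libraries lay together, and the 32-week libraries averaged 38.7% ± 4.64 (SD, n = 2) against 9.66% ± 0.755 (SD, n = 3). Over the 224107 well-covered sites that were under 15% at P21, it was 7.898% ± 0.757 and 4.86% ± 0.648. Over all 248967 well-covered sites it was 9.81% ± 0.996 and 6.51% ± 0.703, so the members stood above that average already at P21. The median site rose by 28.1 points, and the middle 50% of sites rose by 26.3 to 30.9 points. At 166 sites 5hmC was the most frequent of the 3 states at 32 weeks, and at 24 sites it exceeded 50% of tags.

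The sites differed among themselves in where they started. Pooled 5hmC at P21 was under 5% at 131 sites, at least 10% at 506, and 0 at 5. The lowest 32-week library exceeded the highest P21 library by a median of 18.8 points, and by at least 10 points at 943 of 1026 sites. The smallest gap was 1.19 points and the largest 40 points. In 716 of 1026 sites the 32-week replicate 2 was above replicate 1, as it was genome-wide (10.4% against 8.98% 5hmC).

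Each library gave 20 to 83 tags at a member site, with medians of 28 to 44. The exact binomial interval (Clopper-Pearson, 95%) of a single site in a single library was therefore wide, with a median width of 36.4 and 37.3 points at 32 weeks and of 18.6 to 21.8 points at P21. Such intervals cover counting error only. Both 32-week shares lay above all P21 shares at 25.6% of all well-covered sites and below them at 3.04%. The mirrored rule, with 32 weeks under 15% and P21 at least 25 points higher, was met by 11 sites (0.00442%). With changes measured relative to the library-wide rise of 3.24 points, 498 sites met the rule and 30 the mirrored one. Around the limit of 25 points, the sites just inside stood on chromosome 3 at 17787560 (7.69% to 32.7%), chromosome 14 at 24587539 (8.33% to 33.3%) and chromosome 17 at 33875478 (4.55% to 29.5%). Just outside were chromosome 3 at 53186397 (14.1% to 39.1%), chromosome 5 at 110750829 (9.94% to 34.9%) and chromosome 3 at 55648059 (11.7% to 36.7%). The gains on both sides were nearly equal, while the sites inside had lower shares than those outside at both ages.

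The largest gain was at 56031636 on chromosome 17. Its 5hmC share was 48.3% and 75% in the 32-week replicates 1 and 2, and 7.69%, 23.1% and 13.2% in the P21 replicates. The exact intervals ran from 29.4% to 67.5% and from 50.9% to 91.3% at 32 weeks, and the highest upper bound at P21 was 43.6%. Here 5mC fell from 85.4% to 38.8% of pooled tags, while the unmethylated share was 0.971% at P21 and 2.04% at 32 weeks.

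At 72104759 on chromosome 2 the start was different, with 58.2% of P21 tags unmethylated. The 5hmC share was 30% and 66.7% at 32 weeks and 4.35%, 0% and 5.71% at P21, and the unmethylated share fell to 22.0% (pooled). The 32-week libraries at this site were far apart, although both lay above all P21 libraries.

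At 34084860 on chromosome 1, 5hmC was 52.4% and 59.3% at 32 weeks and 10%, 12.5% and 15.2% at P21. At 9979761 on chromosome 16 it was 53.3% and 56.8%, against 5.56%, 15.4% and 12.5%. At 73926747 on chromosome 12 it was 48.4% and 58.1%, against 11.8%, 11.4% and 8.62%. At these 3 sites the ages lay far apart, and 5hmC and 5mC made up nearly all 32-week tags, with the unmethylated share at 0, 0 and 3.23%.

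The other sites among the 8 with the largest gain were on chromosomes 5, 19 and 14. At 121401834 on chromosome 5, 5hmC was 52.9% and 55.6% at 32 weeks and 18.8%, 11.3% and 7.04% at P21. At 47196487 on chromosome 19 it was 51.7% and 62.5%, against 2.63%, 17.2% and 23.7%. At 121347570 on chromosome 14 it was 55% and 57.1%, against 23.5%, 8.70% and 7.14%. The P21 libraries spread more than the 32-week ones here, with an SD of 5.92 against 1.85 points on chromosome 5 and 9.05 against 1.52 on chromosome 14.

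**Figure D1:**
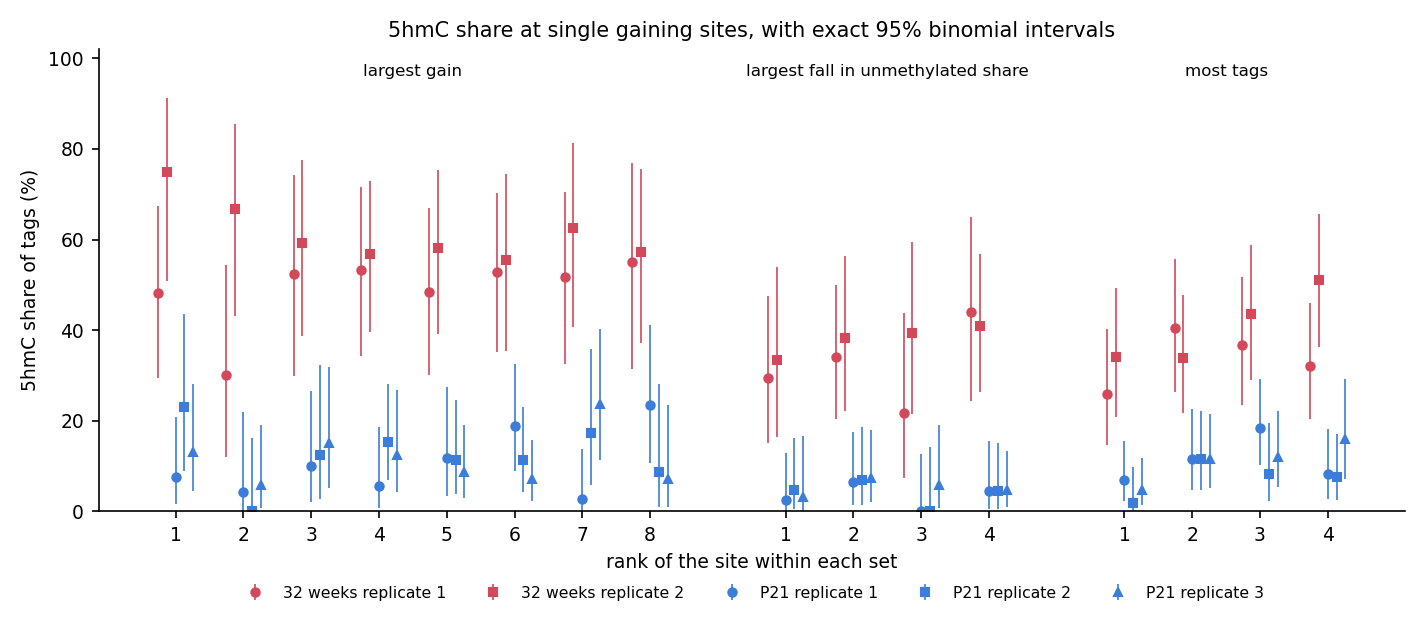
5hmC share (percent of tags, y axis) in each library at the 8 sites with the largest gain, the 4 with the largest fall in the unmethylated share and the 4 with the most tags (x axis, rank within each set); bars are exact 95% binomial intervals. Both 32-week libraries lie above all P21 libraries at every site, as the rule requires, with the top site at 48.3% and 75% against 7.69% to 23.1%.

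Different states were lost at different sites. Of the summed gain in 5hmC, 66.7% was matched by a fall in 5mC and 33.3% by a fall in the unmethylated share. A state was counted as the one mainly lost where its fall made up at least 80% of the gain. By that measure 645 sites (62.9%) lost mainly 5mC, 211 (20.6%) lost mainly the unmethylated state, and 170 (16.6%) lost both. The limit divides a continuum for part of the sites: 54 had 70% to 80% of the gain from 5mC and 17 had as much from the unmethylated state.

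Sites that lost mainly 5mC were mostly methylated at P21. Their 5mC share was 57.7% and 51.0% in the 32-week replicates and 81.8%, 84.3% and 84.4% at P21, a mean of 54.4% ± 4.76 (SD, n = 2) against 83.5% ± 1.45 (SD, n = 3). Their unmethylated share was 6.22% ± 0.298 and 6.14% ± 0.427. Site by site, the unmethylated share changed by a mean of 0.0906 points, within a range from -7.62 to 18.2. The class rule itself keeps the fall in the unmethylated share to at most 20% of the gain, so the small change is not a separate result.

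Sites that lost mainly the unmethylated state were largely unmethylated at P21. Their unmethylated share was 25.5% and 26.2% in the 32-week replicates and 63.6%, 62.3% and 64.1% in the P21 replicates. The mean was 25.8% ± 0.528 (SD, n = 2) against 63.4% ± 0.902 (SD, n = 3). The replicates of each age lay close together. Their 5hmC was 36.4% ± 3.805 against 7.19% ± 0.483, and 5mC was 37.7% ± 4.33 against 29.5% ± 0.893. Of the 211 sites, 165 had more 5mC at 32 weeks than at P21 and 46 had less, and 83 gained at least 10 points of 5mC. The class rule lets 5mC fall by at most 20% of the gain but sets no limit to a rise, so this split is conditioned on the choice of the class and is given as a description.

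**Figure D2:**
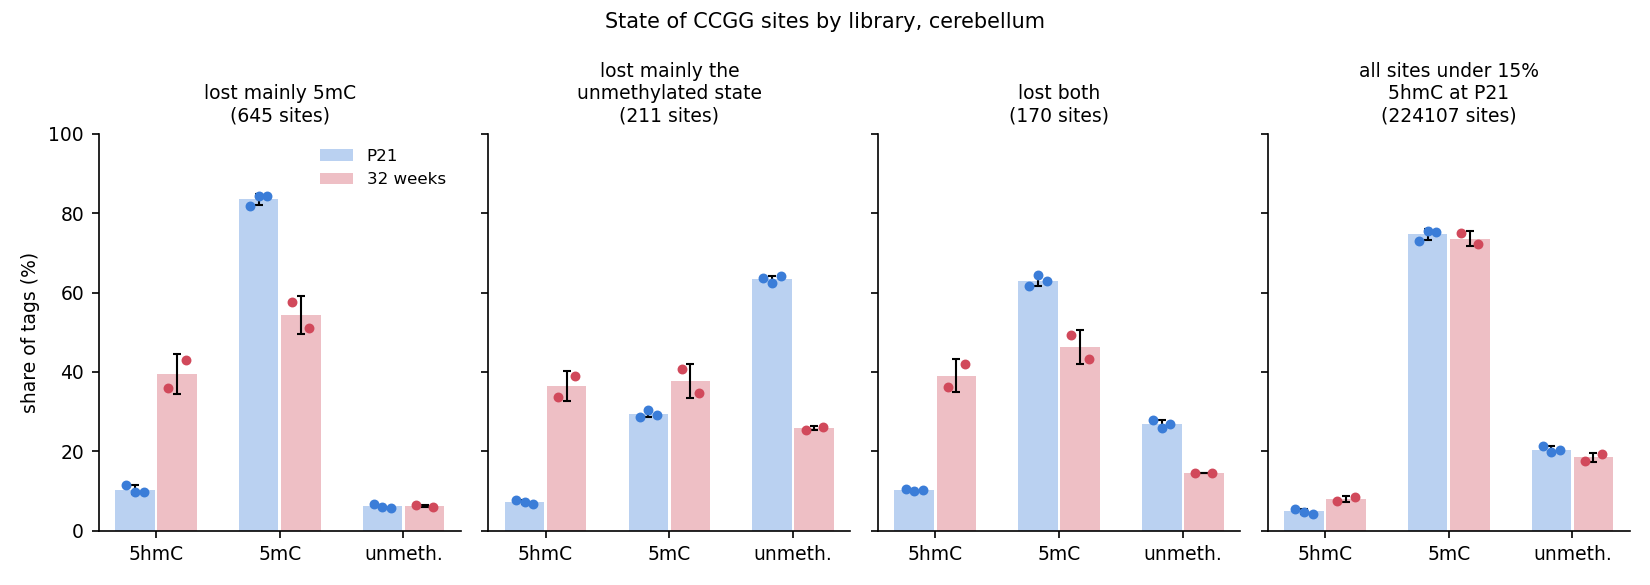
Share of tags (percent, y axis) in the 3 states at P21 and 32 weeks, for sites that lost mainly 5mC, mainly the unmethylated state or both, and for all well-covered sites under 15% 5hmC at P21. Points are libraries, bars their mean and error bars the SD; in the class that lost the unmethylated state that share goes from 63.4% to 25.8%, and in the class that lost 5mC the unmethylated share is 6.14% and 6.22%, which the class rule largely sets.

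The 4 largest falls in the unmethylated share left 13.1% to 17.6% of pooled 32-week tags unmethylated. At 109230698 on chromosome 13 the unmethylated share was 20.6% and 3.70% at 32 weeks and 90.2%, 83.3% and 74.2% at P21. There 5hmC was 29.4% and 33.3% against 2.44%, 4.76% and 3.23%, and pooled 5mC went from 13.2% to 55.7%. A site that was cut by HpaII in most P21 copies was thus modified in most 32-week copies, and more often as 5mC than as 5hmC.

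At 103516802 on chromosome 3 the unmethylated share was 9.09% and 20.6% at 32 weeks and 80.9%, 72.7% and 74.1% at P21, and 5hmC was 34.1% and 38.2% against 6.38%, 6.82% and 7.41%. At 62120373 on chromosome 9 the unmethylated share was 8% and 18.2% against 75%, 64.4% and 79.4%, and 5hmC was 44% and 40.9% against 4.55%, 4.44% and 4.76%. At 121429051 on chromosome 3 it was 21.7% and 14.3% against 85.2%, 87.5% and 65.7%, with 5hmC at 21.7% and 39.3% against 0%, 0% and 5.71%. The P21 5hmC shares were nearly equal across replicates at the first 2 of these sites.

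The largest falls in 5mC include sites where the unmethylated share was also higher at 32 weeks. The 4 largest falls in 5mC were at the sites with the first and seventh largest gain, at 89024824 on chromosome 5 and at 119604265 on chromosome 2. At the chromosome 5 site pooled 5mC fell from 80.7% to 34.8%, 5hmC went from 13.6% to 41.3%, and the unmethylated tags from 5.68% to 23.9%. At the chromosome 2 site 5mC was 42.9% and 21.4% in the 32-week libraries and 73.3%, 71.9% and 83.3% at P21. Unmethylated tags there made up 25% and 14.3%, against 10%, 12.5% and 7.14%. Over all members, 266 sites had a higher unmethylated share at 32 weeks than at P21.

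**Figure D3:**
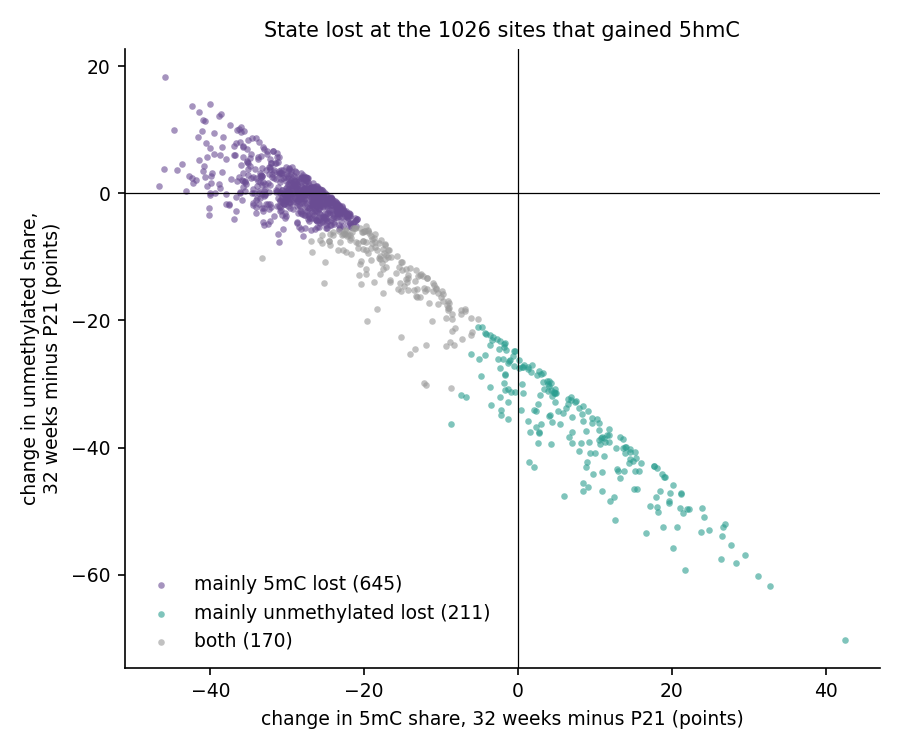
Change in the 5mC share (x axis, points) against the change in the unmethylated share (y axis, points), 32 weeks minus P21, 1 point per site. The rule places all 1026 sites at or below the diagonal on which both changes sum to a loss of 25 points; along it the 645 sites that lost 5mC lie at the upper left and the 211 that lost the unmethylated state reach the lower right, where 5mC rose by up to 42.6 points.

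Sites with no 5hmC tag at P21 came from both starting states. At 77849796 on chromosome 6, 0 of 88 P21 tags were 5hmC, which allows a share of up to 3.41%, and the 32-week libraries held 33.3% and 32%. That site was 85.2% unmethylated at P21 and 54.3% at 32 weeks. At 10445855 on chromosome 16, which was 98.8% methylated at P21, 0 of 82 P21 tags were 5hmC (up to 3.66%) and the 32-week libraries held 20.8% and 35%. At 103565093 on chromosome 3 the 32-week shares were 25% and 28.6%, with 0 of 87 tags at P21 (up to 3.45%), and at 140666425 on chromosome 6 they were 10% and 40.9%, with 0 of 68 (up to 4.41%). The last 2 were 85.1% and 85.3% unmethylated at P21.

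The most deeply counted members came from both starting states. With 307 tags over the 5 libraries, 93702533 on chromosome 14 had 26% and 34% 5hmC at 32 weeks, against P21 shares of 6.94%, 1.82% and 4.82%, and its unmethylated share went from 78.1% to 45.4%. With 293 tags, 96635158 on chromosome 15 held 40.4% and 33.9% against 11.7%, 11.5% and 11.6%, and lost 5mC (82.6% to 60.2%). With 282 tags, 78916363 on chromosome 2 held 36.7% and 43.5% against 18.3%, 8.16% and 11.9%. With 281 tags, 13374649 on chromosome 18 held 32.1% and 51.0% against 8.20%, 7.69% and 16%, and its unmethylated share fell from 62.5% to 27.6%.

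Intermediate sites made up a larger share of the members than of the background. At P21, 508 members (49.5%) were mostly 5mC (at least 80% of tags), 199 (19.4%) mostly unmethylated (at least 50%) and 319 (31.1%) intermediate. Of all well-covered sites under 15% 5hmC at P21, 65.7% were mostly 5mC, 17.2% mostly unmethylated and 17.2% intermediate. Per 1000 such sites, 3.45 of the mostly methylated, 5.17 of the mostly unmethylated and 8.29 of the intermediate ones met the rule. A site with more 5hmC at P21 has less room for 80% 5mC, and members held 9.66% then, against 4.86% in the background. The rule used these 5hmC values. Their part in the class shares was not tested, and the shares are given as a description. Of the 508 mostly methylated members 493 lost mainly 5mC, and of the 199 mostly unmethylated ones 180 lost mainly the unmethylated state.

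Few members lay in dense groups of CCGG sites, such as those of CpG islands. Only 0.390% of members had 5 or more other CCGG sites within 500 bp, against 2.91% of all well-covered sites under 15% at P21. The difference was widest for the unmethylated class. Of its 211 sites 0.948% had 5 or more neighbours, with a mean of 0.858, whereas 14.1% of the 38499 background sites that were mostly unmethylated at P21 did, with a mean of 2.06. For the 5mC class the mean number was 0.572, the same as at the 147147 background sites that were mostly methylated. These are descriptions of position, to which no test was applied.

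Members occurred on all 19 autosomes, at 2.59 (chromosome 3) to 5.41 (chromosome 17) per 1000 well-covered sites, with 86 on chromosome 1. Most had no other member within 10000 bp, but neighbours were more frequent than around other sites. Another member lay within 10000 bp of 6.34% of members, while a member lay within that distance of 0.927% of the 223081 other sites under the P21 limit. Within 100000 bp the shares were 33.3% and 9.09%, and within 1000000 bp 76.3% and 53.5%. Chained at 10000 bp, the members formed 25 pairs and 5 groups of 3.

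The 3 groups of 3 with the largest mean gain differed in the state lost. From 25529724 to 25535673 on chromosome 8, 3 of 4 well-covered sites were members, with 5hmC of 35.7% and 50%, 35.9% and 48.8%, and 39.1% and 45.2% in the 32-week replicates. At P21 they held 2.67% to 17.7% in single libraries, and 2 of them lost mainly 5mC, while the first drew 78.1% of its gain from 5mC and the rest from the unmethylated state. From 130429367 to 130436959 on chromosome 5, all 3 well-covered sites were members and lost mainly 5mC, with pooled 5hmC of 9.38%, 2.83% and 12.9% at P21 and 35.2%, 33.8% and 44.4% at 32 weeks. From 120291934 to 120303860 on chromosome 8, 3 of 6 well-covered sites were members and all lost mainly the unmethylated state, which went from 70.9%, 72.8% and 73.8% to 24.4%, 28.2% and 16.9%.

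Whether the surroundings changed too was asked at sites whose values the rule could not use. These are autosomal sites that missed 20 tags in at least 1 library, called thinly covered below, and 1411 of them lay within 1000 bp of a member. Their pooled 5hmC share was 17% and 20.3% in the 32-week replicates and 11.5%, 10.1% and 10.49% at P21. On average that is 18.7% ± 2.36 (SD, n = 2) against 10.7% ± 0.705 (SD, n = 3), a difference of 7.998 points with no overlap between the ages. Over all 1270546 thinly covered sites the shares were 8.87% and 10.4% against 7.23%, 6.20% and 5.96%. The surroundings of the members thus held more 5hmC already at P21, and the excess over all such sites was 9.06 points ± 1.31 at 32 weeks (SD, n = 2), compared with 4.21 ± 0.331 at P21 (SD, n = 3). A rise in proportion to the P21 level would also widen an excess counted in points, and its part was not tested.

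Both differences exceeded the pooled SD (1.48 points for the share and 0.804 for the excess). The exact permutation test (two-sided) gave p = 0.1 for each, the smallest that 10 splits of 2 against 3 libraries allow, and 0.15 after Benjamini-Hochberg adjustment over the 3 marks. The 5mC share near members was 55.5% and 48.4% in the 32-week replicates and 56.2%, 59.3% and 58.3% at P21, a mean of 52.0% ± 4.99 (SD, n = 2) against 57.9% ± 1.57 (SD, n = 3), also without overlap (exact permutation p = 0.1, adjusted 0.15). This difference of -5.98 points was -2.45 without 32-week replicate 2 and -9.51 without replicate 1. The unmethylated share was 29.4% ± 2.63 (SD, n = 2) against 31.4% ± 0.861 (SD, n = 3), with overlapping libraries (exact permutation p = 0.3, adjusted 0.3). Within 500 bp its difference was -3.00 points (exact permutation p = 0.1, the smallest possible). Neighbouring sites on 1 DNA fragment can be read from the same molecule, whose part in these values was not tested.

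The difference between the ages was widest next to a member and smaller farther away. Within 100 bp (53 sites with a tag) it was 26.1% and 30.9% at 32 weeks and 10.7%, 7.08% and 9.11% at P21, a difference of 19.6 points. From 100 to 250 bp the difference was 7.69 points, from 250 to 500 bp 7.89 and from 500 to 1000 bp 7.49. From 1000 to 2000 bp it was 6.28, from 2000 to 5000 bp 7.37 and from 5000 to 10000 bp 6.56, so it did not fall steadily. From 50000 to 100000 bp it was 4.57, against 3.14 over all thinly covered sites. In the class from 5000 to 10000 bp the libraries stood at 14.99% and 17.6% (32 weeks) and at 10.55%, 9.31% and 9.39% (P21). No library of one age overlapped those of the other at that distance, and none did over all thinly covered sites either.

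**Figure D4:**
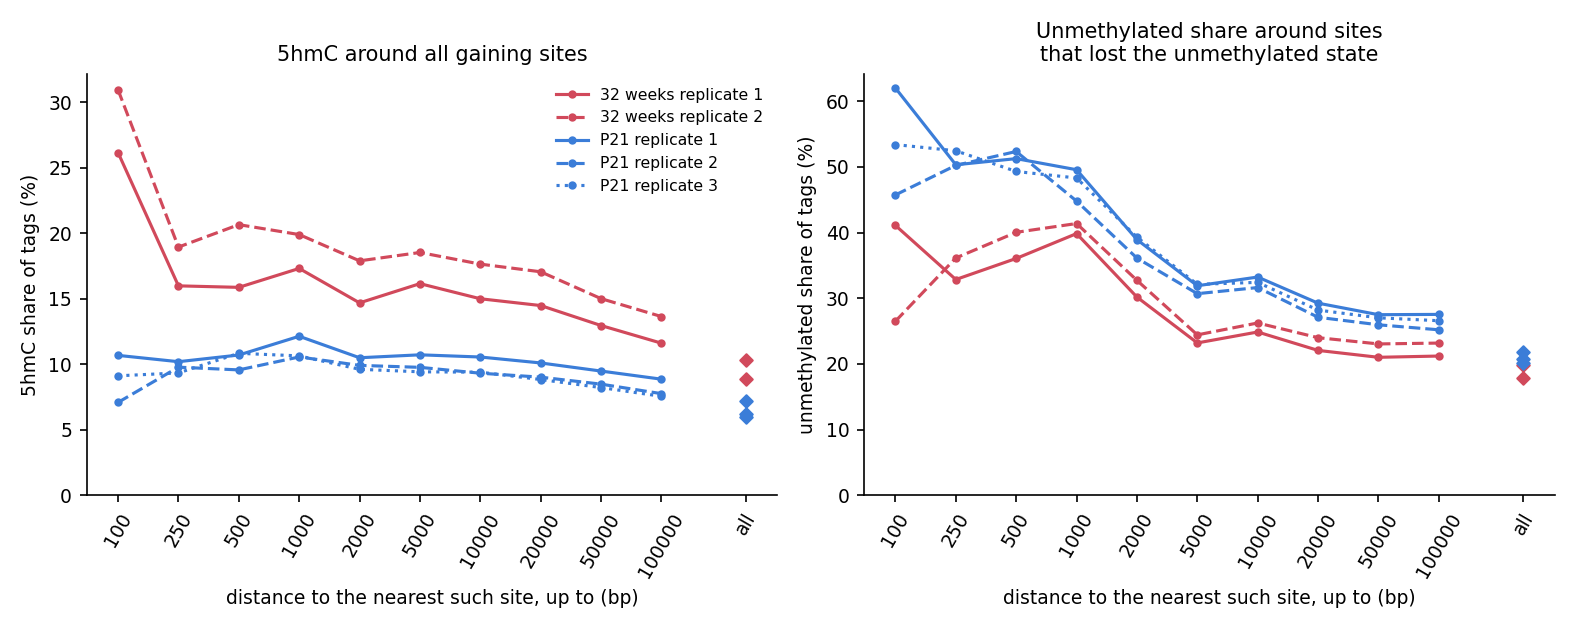
Left, 5hmC share (percent of tags) at thinly covered sites by distance to the nearest member (x axis, upper limit of each distance class in bp), 1 line per library; right, the unmethylated share around members that lost the unmethylated state. Diamonds give all thinly covered autosomal sites. The 32-week lines lie above the P21 lines at every distance on the left, from 26.1% and 30.9% next to a member. On the right they lie below the P21 lines at every distance. The 32-week diamonds there also lie below the P21 ones (17.9% and 19.8% against 20.1% to 21.8%).

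The surroundings of the classes differed in the state that was lower at 32 weeks. Over all thinly covered sites the unmethylated share was itself lower at 32 weeks, at 17.9% and 19.8% against 21.8%, 20.1% and 20.7%. Within 1000 bp of members that lost mainly the unmethylated state, thinly covered sites were 37.8% and 39.9% unmethylated at 32 weeks and 50.5%, 47.9% and 49.3% at P21, with 5mC at 48.3% and 42.0% against 40.2%, 42.8% and 42.1%. Within 1000 bp of members that lost mainly 5mC, the unmethylated share was 23.6% and 28.9% against 24.8%, 23.8% and 23.7%, and 5mC was 58.5% and 49.9% against 63.1%, 65.9% and 65.2%. The gap in the unmethylated share between these surroundings was 12.6 points at 32 weeks and 25.1 at P21, with 10.97 to 14.2 and 24.1 to 25.7 in single libraries. That change of -12.5 points had an exact permutation p of 0.1, the smallest possible, and 0.15 adjusted over 3 marks. For 5hmC the corresponding change was -1.44 points (exact permutation p = 0.2, adjusted 0.2). This comparison was chosen after the data were seen.

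In windows of 10000 bp, counted over thinly covered sites alone, the odds of a 5hmC tag rose in 98 of 768 windows that hold a member, which is 12.8%, and fell in 0 (345 had an unadjusted p under 0.05). The background was 3436 of 134779 windows (2.55%) with a rise and 8 (0.00594%) with a fall (edgeR, adjusted p under 0.05). Of all windows tested, 22053 had an unadjusted p under 0.05. Members lie in 1009 windows, of which 768 had the 20 thinly covered tags per library that the test needs. The median log2 odds of 5hmC, 32 weeks over P21, was 0.99 in the member windows and 0.60 in all. Taken relative to each library's own odds, which moved the median of all windows to -0.01, the member windows had a median of 0.35, and 1 of them and 18 of all windows rose. Of windows with a member that lost 5mC 62 of 466 rose, and of those with a member that lost the unmethylated state 17 of 174. Windows with members were also better counted, with a median of 372 tags against 300, and richer in 5hmC at P21 (8.99% against 5.24%), and the part of either in the counts was not tested.

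The counts depended on which libraries were included. In the member windows, 64 rose without 32-week replicate 1, 4 without replicate 2, 28 without P21 replicate 2 and 6 without P21 replicate 3. The counts over all windows were then 2279, 88, 963 and 249. DESeq2 called 0 windows, while 8959 of all and 178 member windows had an unadjusted p under 0.05. In windows of 50000 bp, which hold more tags, 575 of 954 with a member rose (60.3%), against 17.5% of 47271 in all.

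**Figure D5:**
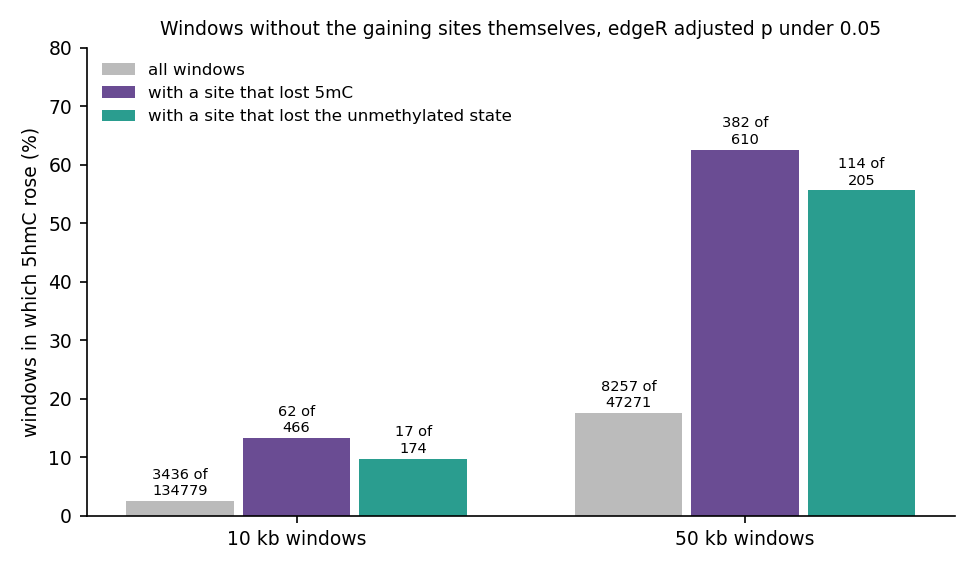
Percent of windows (y axis) in which 5hmC rose between P21 and 32 weeks (edgeR, adjusted p under 0.05), for all windows and those with a member that lost 5mC or the unmethylated state, at 2 window sizes (x axis). Counts above the bars read called of tested; with 50000 bp windows 382 of 610 and 114 of 205 rose, against 8257 of 47271.

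Among the windows with 2 or more members, that with the smallest p was on chromosome 8 from 25530001 to 25540000, in the group of 3 members given above. Its thinly covered sites had 27.3% and 29.2% 5hmC at 32 weeks, against 13.3%, 6.61% and 9.38% at P21 (edgeR, log2 odds 1.89, adjusted p = 0.00132). Chromosome 8 from 11800001 to 11810000 held 23.8% and 33.9% against 11.8%, 3.51% and 9.91% (edgeR, log2 odds 2.01, adjusted p = 0.00705). In the window from 69510001 to 69520000 on chromosome 18 the shares were 40.4% and 48.9% against 22.6%, 26.9% and 24.6%, and it did not pass (edgeR, adjusted p = 0.0955). At 35810001 to 35820000 on chromosome 18 thinly covered sites held 5.68% and 1.33% against 6.06%, 6.74% and 1.63%, with overlapping ages (edgeR, adjusted p = 0.885). Of 13 such windows these 2 on chromosome 8 passed; they were singled out after their values were seen.

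A similar picture held at well-covered sites that missed the rule. Of 266 such sites within 1000 bp of a member, 104 (39.1%) gained at least 10 points of 5hmC, against 11% of all 247941, and the median gain was 7.15 against 2.17 points. These sites enter the rule, so the comparison is a description.

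Chromosome Y tags split the libraries. P21 replicates 1 and 3 held 2172 and 2171 chromosome Y tags per 1000000 tags. P21 replicate 2 and both 32-week libraries held 83.6 to 108.2. No 32-week library was in the high class, so this split partly coincides with age and cannot be fully told apart from it. At the members, the gain over the 1 P21 library low in these tags was 29.5 points, and over the 2 high ones 28.9 points. The rule requires a gain over every P21 library, so these values say nothing about the split. Within the class low in chromosome Y tags, thinly covered sites near members held 17% and 20.3% at 32 weeks against 10.1% in the 1 P21 library. All thinly covered sites held 8.87% and 10.4% against 6.20% in the same libraries. With that class as a term, 4 member windows and 88 of all windows rose (edgeR).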

How the data were processed

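DARESOME tags of mouse cerebellum were analysed in 5 deposited tables, 1 per library, and the human files were not used here. The submitters' processing notes list Bowtie2 (2.3.4.1), cutadapt (1.5) and UMI-tools (0.5.4); their roles, filters and counting rule are not given in the sources used here. Each site has 3 deposited fraction values, 1 per state, and the deposited counts give its total of tags. The tables have no header. The first fraction was 79.2% to 81.7% at sites with 10 or more CCGG sites within 500 bp and 13.1% to 16.3% at isolated sites, as unmethylated DNA is known to be. The far larger of the other 2 was taken as 5mC, and every 5hmC result rests on this. Fraction times count was whole within 0.00358, which gave the tags of each kind. The notes name hg38 for mouse samples too; the positions were read as mm10, because chromosome 1 has a site at 195371253, beyond its end in the later mouse build. No mouse genome or annotation was analysed here, so genes and sequences are not given, and the gene lists were not run.

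The members and lists were chosen with earlier results of these data known. Sites were named by rank (8 largest gains, 4 lowest P21 shares, 4 largest falls in each other state, 4 with most tags, 3 groups with most members, ties by mean gain, 3 on each side of the gain limit). Library values near members were compared by exact permutation of the libraries. Windows were tested with edgeR 4.0.16 in R 4.3.3 (quasi-likelihood, 5hmC against other tags, 1 term per library, Benjamini-Hochberg). On simulated data for these windows (20000 windows, 100 changed at each size), it recovered 4% of 2-fold and 38% of 4-fold changes in odds, with 0 false calls. Apart from those changes, the simulated libraries shared the same 5hmC share in each window. They had no variation between libraries beyond counting error and no library-wide rise. The 0 false calls therefore do not measure the false calls in the real windows. DESeq2 1.42.0 was an alternative. Python 3.11.15 and matplotlib 3.10.9 were used for the rest. Alternatives covered the limits of the rule, distance, window size, tag minimum, odds relative to each library, 5mC tags alone as reference, the replicate number, chromosome Y tags, chromosome X and each library left out.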

Additional observations from a re-analysis of the deposited data

How the results depend on the processing

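The number of members followed the limits that define them. It was 4051 of 649992 sites covered with 10 tags and 308 of 94804 with 30. Per 1000 covered sites that is 6.23 and 3.25, against 4.12 with 20 tags. It was 520 under 10% at P21, 2688 at 20 points and 330 at 30 points, and 498 for a gain beyond the library-wide one of 3.24 points. With 1 library left out it was 1164 to 3544, the highest without 32-week replicate 1, where 1 share alone had to exceed P21. These larger sets did not hold all 1026 members. They kept 532 of them without 32-week replicate 2, and 801 to 880 without each of the other libraries. The 5mC part of the lost points (66.7%) was 61.7% with 30 tags, 50.7% under 10% at P21, and 62.8% to 69.8% with 1 library left out. Near members, the difference between the ages stayed above 0 for 5hmC and below 0 for 5mC at the other distances, with at least 5 tags, as a mean of site shares and with each library left out, with 5mC between -9.51 and -2.45 points in the last. The unmethylated share near members relative to all such sites changed by -0.0192 points; it was -1.0002 at 500 bp (exact permutation p = 0.1, the smallest possible; 0.1 to 1 over the alternatives) and turned to 0.389 at 5000 bp and 0.514 at 500 to 5000 bp (added after the data were seen), and lay between -0.918 and 0.880 with 1 library left out. Not taken relative to all sites, it was -3.00 at 500 bp and -2.73 as a mean of site shares (exact permutation p = 0.1 for both). Windows with a rise and, in that order, members' windows with a rise and windows with a fall were 8257, 575 and 18 at 50000 bp, 18, 1 and 10 for odds relative to each library, 88, 4 and 1 with chromosome Y tags as a term, and 0, 0 and 0 with DESeq2. With 1 library left out they were 88 to 2995, 4 to 89 and 0 to 5, where a lone 32-week library was assumed to vary like the P21 ones. Falls were 4 at a minimum of 1 tag and 3 against 5mC alone. With a block for the replicate number they were 107, 5 and 1. Deviations from the mean of each age correlated at -0.0127 and -0.00515 between libraries with the same number. The deviations of the 2 32-week libraries are exact opposites, so these values cannot decide whether libraries were paired. The numbers were not treated as pairs. At 20 tags a library's share at 1 site is known only within wide intervals.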

Other observations

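No site on chromosome X met the rule. Of 3548 well-covered sites there the count was 0, which allows up to 0.846 per 1000 (3 counts), against 4.12 per 1000 on the autosomes. The 5hmC share at those sites was 3.94% and 5.28% in the 32-week replicates 1 and 2 and 5.37%, 2.78% and 4.05% in the P21 replicates 1 to 3, so the ages overlapped. Among the libraries low in chromosome Y tags, P21 replicate 2 (2.78%) lay below both 32-week libraries. The 2 P21 libraries high in chromosome Y tags had 1.95% and 1.996% of their tags on chromosome X, and the other libraries 3.79% to 3.85%.

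The 11 sites that met the mirrored rule had less 5hmC and a higher unmethylated share at 32 weeks. Summed over them, 5hmC was 9.58% and 4.47% at 32 weeks and 40.3%, 34.7% and 30.4% at P21. The unmethylated share was 58.1% and 75.7% against 23.7%, 18.6% and 27.0%, and 5mC was 32.3% and 19.8% against 36.1%, 46.7% and 42.7%. The largest fall was at 54253564 on chromosome 6, where pooled 5hmC went from 44.6% at P21 to 5.17% at 32 weeks and the unmethylated share from 23.8% to 69.0%.

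Members within 1000 bp of each other formed 6 pairs. On chromosome 9, 53256520 and 53257206 held 48.1% and 32.8% pooled 5hmC at 32 weeks and 10.8% and 5.31% at P21. On chromosome 14, 74904198 and 74905160 went from 11.2% and 13.6% to 36.7% and 42.9%. On chromosome 18, 69515245 went from 14.2% to 43.7% and lost both states, while 69516048 went from 5.88% to 33.3% and lost the unmethylated state. On chromosome 3, 95999158 was 41.3% unmethylated at P21 and 95999916 was 6.06%, so neighbouring members need not share a starting state.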
